A study of Homo sapiens with 6 samples.

Results

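The genes described here are 47 genes of cellular redox defence in Caco-2 cells: enzymes that make, recycle and use glutathione, the thioredoxin, peroxiredoxin and glutaredoxin families, superoxide dismutases and catalase, the sensor KEAP1 and its transcription factor NRF2 (gene NFE2L2), and selenoproteins. They were taken by gene symbol from a fixed list, all 47 were among the 16781 genes of the expression table, and all 47 had enough counts for a test among 13028 genes tested. Caco-2 is an established human colon adenocarcinoma line with features of absorptive enterocytes. The study compared 3 libraries of a line in which CBS had been knocked out stably with CRISPR/Cas9 (CBS KO) with 3 libraries of unmodified cells (WT), all grown in high glucose DMEM with serum. The line was made by lentiviral delivery of Cas9 and a guide, followed by puromycin selection, and effects of the knockout, the virus and the antibiotic cannot be told apart in this comparison. The labels do not say whether the line was 1 clone or a pool, nor whether libraries came from separate cultures, and p-values measure the spread between these libraries, which may be technical.

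Glutathione is a tripeptide of glutamate, cysteine and glycine, and CBS opens the transsulfuration route by which methionine sulfur reaches cysteine. Reduced glutathione feeds the glutathione peroxidases, the glutathione transferases and the glutaredoxins, while thioredoxin, kept reduced by thioredoxin reductase and NADPH, feeds the peroxiredoxins. KEAP1 holds NRF2 in the cytoplasm for degradation until oxidants or electrophiles modify its cysteines, after which NRF2 and a small MAF protein bind antioxidant response elements near genes of both systems. Several of these enzymes carry selenocysteine, which is inserted at a UGA codon that elsewhere ends translation. Enterocytes face peroxides and electrophiles from food and bacteria, and glutathione peroxidase and transferase genes are known for high expression there.

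The libraries held 12805180 to 14307287 estimated counts in CBS KO and 16097680 to 16176745 in WT. In counts scaled to the library size (CPM), the targeted gene CBS stood at 24.6, 18.5 and 25.4 CPM in the CBS KO libraries, against 48.8, 53.0 and 50.6 CPM in the WT libraries. Its counts were not whole in 6 of 6 libraries, and how reads were divided between CBS and its near-identical copy CBSL is uncertain. Epithelial markers were present, with KRT8 the most abundant and the 15 markers summing to 9916 to 9930 TPM (abundance per transcript length, scaled to the library's sum) in CBS KO and 10826 to 11544 TPM in WT. The 7 fibroblast markers in the table summed to 42.5 to 49.1 TPM in CBS KO and 77.6 to 87.3 TPM in WT, mostly from COL1A1, and the 6 leukocyte markers to 84.96 to 87.7 TPM in CBS KO and 54.2 to 65.1 TPM in WT, mostly from CD68. The 4 endothelial markers summed to 2.90 to 3.13 TPM in CBS KO and 13.2 to 14.4 TPM in WT, no marker of these 3 lists that was in the table was at 0 in all libraries. Of these fibroblast, endothelial and leukocyte markers 2, 3 and 3 stayed under 1 TPM in every library, and the part of such transcripts in the redox results was not tested. CPM values use library sizes adjusted by trimmed mean of M values factors (TMM). Direction depends on this choice. Over all genes tested the median of the log2 fold changes, CBS KO over WT, was -0.01 with TMM and -0.36 with the library total. It was -0.32 in FPKM, which divides fragments by transcript length and depth, and -0.54 in TPM. Smaller changes than these, and some larger ones, can keep their sign in some scalings and lose it in others. Values given beside the name of a scaling are log2 fold changes under it, and levels with ± are a mean and SD over 3 libraries unless SE is named.

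Of the 47 redox genes, 20 were higher in CBS KO, 11 were lower and 16 did not pass (edgeR's quasi-likelihood test, Benjamini-Hochberg adjusted p under 0.05 over all genes tested). That is 42.6% higher and 23.4% lower, beside 38.4% and 38.9% of all genes tested. In either direction 66.0% were called, beside 77.2% of all genes. Their median log2 fold change was 0.12, or 0.13 above the median of all genes with TMM and 0.08 above it with TPM. A change of at least 2-fold was called for 8 redox genes, or 17.0%, beside 23.5% of all genes tested. TXNIP, GLRX, SELENOP, GPX4 and TXNRD1 were the 5 higher ones (12.0% of all genes were higher), and GSTA1, KEAP1 and MSRB1 the 3 lower ones (11.5%). In 6 scalings of the data (TMM, library total, DESeq2 size factors, upper quartile, FPKM and TPM), 9 redox genes were called higher each time, or 19.1% beside 13.5% of all genes, and 11 were called lower each time, or 23.4% beside 34.8% of all genes. The other 11 higher calls depended on the scaling: GCLM and GPX3 kept their sign but did not pass with TPM, and GGT1, GPX1, PRDX3, GLRX3, GLRX5, MGST2, SOD2, CAT and SELENOH changed sign in at least 1 scaling. RNA came from bulk cultures, in which fewer cells that express a gene and less of its RNA per cell cannot be told apart.

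**Figure D1:**
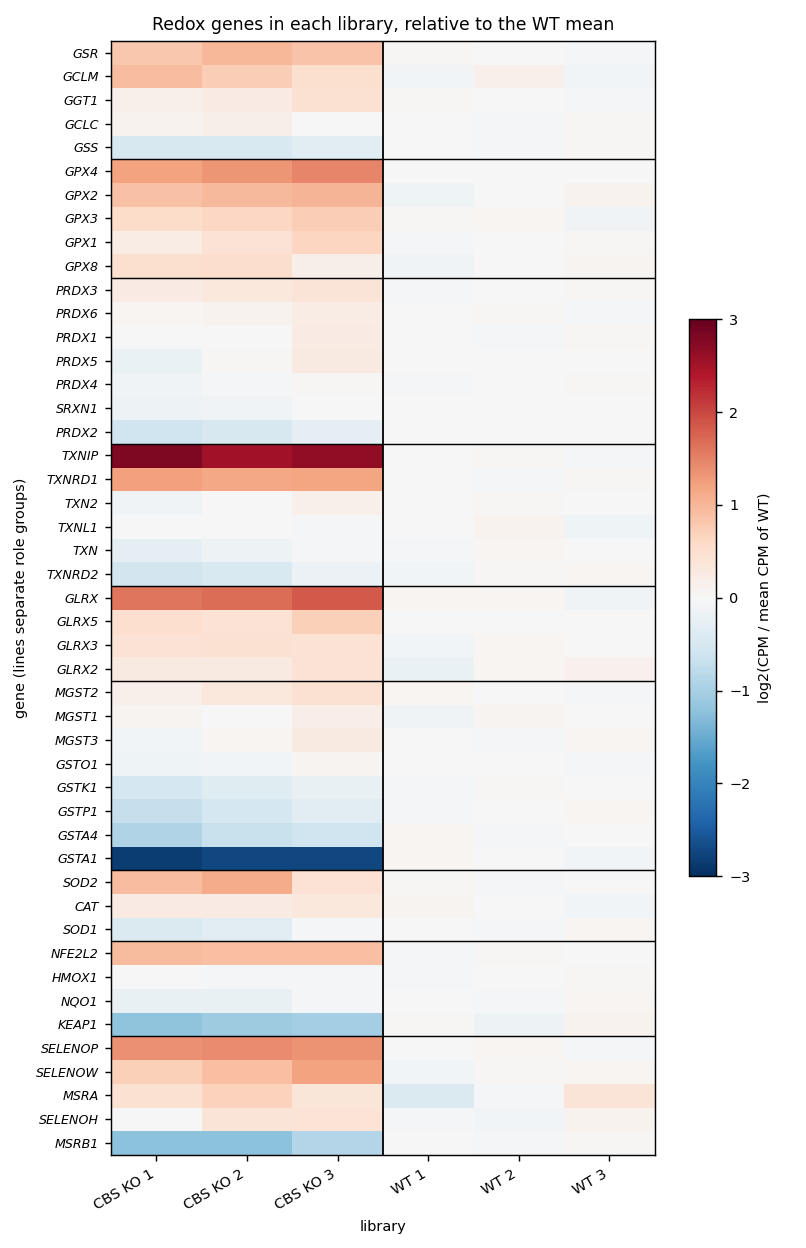
Each row is a redox gene and each column a library, coloured by log2 of its CPM over the mean CPM of the 3 WT libraries, with horizontal lines between role groups. TXNIP is the darkest red row and GSTA1 the darkest blue in all 3 CBS KO libraries, while the WT columns stay near 0.

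The NRF2 arm showed opposite changes in the activator and its inhibitor. NFE2L2, which encodes NRF2, stood at 132, 129 and 129 CPM in the CBS KO libraries, against 66.7, 70.5 and 69.8 CPM in the WT libraries. KEAP1, the adaptor that delivers NRF2 to a ubiquitin ligase, stood at 28.6, 31.6 and 32.6 CPM in CBS KO and 68.2, 60.0 and 70.9 CPM in WT. Neither gene's groups overlapped: every CBS KO library was above every WT library for NFE2L2 and below every one for KEAP1. NFE2L2 rose 1.89-fold (0.92 ± 0.06 on the log2 scale, SE, edgeR adjusted p = 4.52e-10) and KEAP1 fell 2.15-fold (-1.10 ± 0.08 on the log2 scale, SE, edgeR adjusted p = 2.54e-09). Both calls held in the 6 scalings, with log2 fold changes of 0.30 for NFE2L2 and -1.63 for KEAP1 with TPM. An mRNA level does not measure NRF2 protein, which is set largely by degradation.

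Inducible genes that serve as textbook readouts of NRF2 were divided. NQO1, a quinone reductase, stood at 228, 227 and 254 CPM in CBS KO and 262, 259 and 274 CPM in WT, 1.12-fold lower (-0.16 ± 0.06 on the log2 scale, SE, edgeR adjusted p = 0.0186). The edgeR adjusted p was 0.0906 when CBS KO replicate 2 was left out and 0.0703 when WT replicate 3 was. HMOX1, the heme oxygenase, stood at 18.3, 17.4 and 17.8 CPM in CBS KO and 17.7, 17.9 and 18.7 CPM in WT and did not pass with TMM (log2 fold change -0.02, 95% interval -0.20 to 0.15). The groups overlapped with TMM, while HMOX1 was called lower with the library total, FPKM and TPM (-0.58 with TPM). SRXN1, the sulfiredoxin that reactivates overoxidised peroxiredoxins, did not pass either, at 67.0 ± 3.09 CPM in CBS KO and 71.2 ± 0.244 CPM in WT (log2 fold change -0.09, 95% interval -0.22 to 0.05), and was called lower without CBS KO replicate 3 (adjusted p = 0.0468). Of the 10 redox genes that are textbook NRF2 targets, 4 rose (GCLM, GSR, GPX2 and TXNRD1), 1 fell (NQO1) and 5 did not pass. Their median was 0.09 on the log2 scale, or 0.10 above that of all genes. With TPM, 3 were higher and 6 lower, and the median was -0.50, or 0.04 above that of all genes. Of all genes tested, 38.4% were higher and 38.9% lower with TMM, and 15.2% and 67.6% with TPM.

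Promoter sequence was searched for the core of the antioxidant response element, TGACNNNGC, on both strands of the 250 bases before the start used by RefSeq's promoter table. For GSTO1, MGST1, SOD2 and NFE2L2 that start lay inside the RefSeq span of the gene, so the bases searched were within it. The first letters of this core overlap those of the AP-1 motif TGANTCA, which was not searched separately. RefSeq's promoter table (GRCh38.p14) held 37 of the 47 redox genes, and 8 of these 37 (21.6%) had the core, beside 11.6% of 13422 promoters of genes in the expression table. Those 8 genes went in no common direction: GCLM, GPX2, TXNRD1 and SELENOP rose, GSTA4 and GSTP1 fell, and TXNL1 and GSTO1 did not pass. The promoters of 3 NRF2 target genes that rose and of the most abundant gene that fell are printed 5′ to 3′ along the gene, because they carry the same core beside opposite changes, with the core in capitals.
GCLM, chr1:93909431-93909680, minus strand: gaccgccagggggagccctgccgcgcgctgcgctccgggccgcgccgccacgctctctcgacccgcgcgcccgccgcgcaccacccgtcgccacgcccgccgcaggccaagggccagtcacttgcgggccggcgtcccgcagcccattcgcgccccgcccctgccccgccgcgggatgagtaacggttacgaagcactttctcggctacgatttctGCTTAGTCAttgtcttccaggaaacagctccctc
GPX2, chr14:64942746-64942995, minus strand: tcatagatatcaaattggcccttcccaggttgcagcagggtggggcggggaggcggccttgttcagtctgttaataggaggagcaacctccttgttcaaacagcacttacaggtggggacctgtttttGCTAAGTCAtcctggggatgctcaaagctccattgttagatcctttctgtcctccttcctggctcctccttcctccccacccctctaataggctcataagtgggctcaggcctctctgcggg
TXNRD1, chr12:104215529-104215778, plus strand: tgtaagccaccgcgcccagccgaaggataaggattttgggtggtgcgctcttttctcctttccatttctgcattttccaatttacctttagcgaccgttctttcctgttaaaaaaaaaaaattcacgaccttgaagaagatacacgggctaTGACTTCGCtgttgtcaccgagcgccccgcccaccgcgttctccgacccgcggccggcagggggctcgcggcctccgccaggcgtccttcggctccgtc
GSTP1, chr11:67583562-67583811, plus strand: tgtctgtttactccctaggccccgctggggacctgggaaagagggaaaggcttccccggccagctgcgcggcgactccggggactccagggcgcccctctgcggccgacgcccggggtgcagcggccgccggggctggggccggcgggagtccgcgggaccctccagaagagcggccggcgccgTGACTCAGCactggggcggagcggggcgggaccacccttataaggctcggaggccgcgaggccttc
In GCLM and GPX2 the core lies on the strand opposite to the gene, and in TXNRD1 and GSTP1 on the gene's own strand. A match of letters is not a site that was measured, and a promoter with no match holds no information on NRF2 elsewhere.

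Glutathione synthesis was divided between its steps. The first and rate-limiting step is made by glutamate-cysteine ligase, a catalytic subunit (GCLC) with a modifier subunit (GCLM) that raises its activity. GCLM stood at 23.5, 20.7 and 17.2 CPM in CBS KO and 11.6, 13.6 and 11.7 CPM in WT, with every CBS KO library above every WT library, and rose 1.66-fold (0.73 ± 0.11 on the log2 scale, SE, edgeR adjusted p = 1.78e-05), but its TPM groups overlapped and it did not pass with TPM (0.16). GCLC stood at 61.8, 64.6 and 56.7 CPM in CBS KO and 57.9, 54.9 and 58.9 CPM in WT, where the groups overlapped, and did not pass (log2 fold change 0.09, 95% interval -0.06 to 0.24), with the opposite sign in the library total (-0.26) and TPM (-0.46). GSS, the synthetase of the second step, stood at 108, 108 and 120.2 CPM in CBS KO and 151, 144 and 154 CPM in WT and fell 1.33-fold (-0.42 ± 0.06 on the log2 scale, SE, edgeR adjusted p = 1.06e-05), a call that held in all 6 scalings. GSR and GGT1 act after synthesis. GSR, the reductase that returns oxidised glutathione to its reduced form with NADPH, stood at 188, 214 and 194 CPM in CBS KO and 109.6, 109 and 104 CPM in WT, without overlap, and rose 1.84-fold (0.88 ± 0.06 on the log2 scale, SE, edgeR adjusted p = 1.2e-09). GGT1, which starts the breakdown of glutathione outside the cell, was 1.22-fold higher with TMM (adjusted p = 0.0063 by edgeR) but had the opposite sign with the library total (-0.06) and TPM (-0.29). GGT1 counts were not whole in 4 of 6 libraries, so how its reads were assigned is uncertain.

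Glutathione peroxidases, which reduce peroxides with glutathione, rose with TMM in most members: 4 of 5 were called higher, none lower, and the median log2 fold change was 0.64, or 0.65 above that of all genes. Of all genes tested, 38.4% were higher and 38.9% lower. With TPM 2 of 4 tested were higher and 1 lower, beside 15.2% and 67.6% of all genes. The median with TPM was 0.21, or 0.76 above that of all genes. GPX4, the enzyme that reduces lipid hydroperoxides in membranes and restrains ferroptosis, stood at 642, 694 and 767 CPM in the CBS KO libraries, against 279, 277 and 276 CPM in the WT libraries. It rose 2.53-fold (1.34 ± 0.07 on the log2 scale, SE, edgeR adjusted p = 2.43e-11) and stood at 1711 ± 6.99 TPM in CBS KO, against 1024 ± 6.65 TPM in WT (SD, n = 3 in each). Per unit of length GPX4 and GSTP1 were the most abundant of the 47 genes in CBS KO and could not be ranked, since GSTP1 was above GPX4 in 2 of the 3 libraries, whereas GPX4 held rank 3 in WT. GPX2, the gastrointestinal form, stood at 39.8, 42.4 and 43.8 CPM in CBS KO and 19.8, 21.6 and 23.2 CPM in WT and rose 1.95-fold (0.96 ± 0.08 on the log2 scale, SE, edgeR adjusted p = 9.47e-09), also in all 6 scalings. GPX3, the secreted form, was 1.56-fold higher with TMM (adjusted p = 1.05e-07 by edgeR) but stood at 296 ± 2.07 TPM in CBS KO and 286 ± 16.0 TPM in WT, where it did not pass. GPX1, the widespread cytosolic form, was 1.36-fold higher with TMM (adjusted p = 0.000251 by edgeR), did not pass with the library total (0.08) and had the opposite sign with TPM (-0.16). GPX8, a membrane protein of the endoplasmic reticulum with cysteine in place of selenocysteine, had at most 2.37 CPM in a library and did not pass (log2 fold change 0.40, 95% interval -0.05 to 0.86).

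GPX1 to GPX4 belong with TXNRD1, TXNRD2, SELENOW, SELENOH, SELENOP and MSRB1 to the 10 redox genes that encode selenocysteine. The coding sequence around the selenocysteine codon is printed for members that rose and that fell, because the same in-frame TGA is shared by genes with opposite changes. The sequences are those of GENCODE 29 transcripts (GRCh38), 5′ to 3′ along the transcript, with the codon in capitals and the position of the codon in the genome.
GPX1, chr3:49358132-49358134: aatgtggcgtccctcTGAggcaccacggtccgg
GPX2, chr14:64942607-64942609: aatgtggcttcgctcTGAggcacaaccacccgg
GPX4, chr19:1105403-1105405: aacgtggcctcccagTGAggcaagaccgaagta
TXNRD1, chr12:104348413-104348415: ctccaggctggctgcTGAggt
TXNRD2, chr22:19877111-19877113: acggtgacaggctgcTGAggg
SELENOW, chr19:47780732-47780734: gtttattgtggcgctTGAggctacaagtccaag
SELENOP, chr5:42808177-42808179: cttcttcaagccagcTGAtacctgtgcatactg
MSRB1, chr16:1940812-1940814: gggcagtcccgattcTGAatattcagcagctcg
The codon is number 73 of 197 in GPX4, 49 of 203 in GPX1 and 40 of 190 in GPX2, and it is the last but 1, before a single glycine codon, in TXNRD1 (498 of 499) and TXNRD2 (523 of 524). SELENOP has 10 annotated selenocysteine codons, of which the first, codon 59, is shown.

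Of the 10 selenocysteine genes, 8 were called higher with TMM and 2 lower, with a median log2 fold change of 0.80, or 0.81 above that of all genes. With TPM, 5 were higher and 4 lower, and the median of 0.20 was 0.74 above that of all genes. Of all genes tested, 38.4% were higher and 38.9% lower with TMM, and 15.2% and 67.6% with TPM. SELENOP, a secreted protein that carries selenium between tissues, stood at 273, 279 and 269 CPM in CBS KO and 104, 109.7 and 101 CPM in WT and rose 2.61-fold (1.38 ± 0.06 on the log2 scale, SE, edgeR adjusted p = 1.57e-12). SELENOW, a small selenoprotein that binds glutathione, stood at 21.7, 24.7 and 30.4 CPM in CBS KO and 12.4, 13.5 and 13.7 CPM in WT and rose 1.94-fold (0.96 ± 0.11 on the log2 scale, SE, edgeR adjusted p = 7.05e-07). In both genes every CBS KO library lay above every WT library, and both were called in all 6 scalings. MSRB1, the reductase of the R form of methionine sulfoxide, went the other way, at 21.8, 21.9 and 27.9 CPM in CBS KO and 51.7, 49.4 and 52.1 CPM in WT, and fell 2.14-fold (-1.10 ± 0.09 on the log2 scale, SE, edgeR adjusted p = 7.46e-09) without overlap. MSRA, the reductase of the S form, which uses cysteine, had no more than 2.02 CPM in a library. It did not pass (log2 fold change 0.50, 95% interval -0.06 to 1.05), although it did without WT replicate 3 (adjusted p = 0.0314). SELENOH, a nucleolar selenoprotein, was 1.21-fold higher with TMM (adjusted p = 0.0362 by edgeR), a call that was lost when CBS KO replicate 2 or 3 or WT replicate 1 or 2 was left out (adjusted p = 0.142, 0.141, 0.103 and 0.127) and that had the opposite sign with TPM (-0.30).

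The thioredoxin system held the largest rise among the redox genes, in its inhibitor. TXNIP, which binds thioredoxin and also restrains glucose uptake, stood at 920.3, 759 and 837 CPM in the CBS KO libraries, against 135, 137 and 128 CPM in the WT libraries. The groups lay far apart, and TXNIP rose 6.31-fold (2.66 ± 0.07 on the log2 scale, SE, edgeR adjusted p = 1.69e-14), or by 2.05 on the log2(TPM + 1) scale. Per unit of length it held rank 4 among the 47 genes in CBS KO, at 396 ± 56.5 TPM, and rank 27 in WT, at 94.4 ± 3.25 TPM. TXNRD1, the cytosolic thioredoxin reductase, stood at 251, 241 and 245 CPM in CBS KO and 106, 105 and 109 CPM in WT and rose 2.30-fold (1.20 ± 0.05 on the log2 scale, SE, edgeR adjusted p = 5.7e-12, and 0.59 with TPM). The mitochondrial reductase TXNRD2 differed in direction, at 25.0, 26.7 and 32.5 CPM in CBS KO and 34.3, 37.4 and 38.1 CPM in WT, and fell 1.30-fold (-0.38 ± 0.09 on the log2 scale, SE, edgeR adjusted p = 0.0012). All 3 calls held in the 6 scalings, and none of the 3 genes' groups overlapped.

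Neither thioredoxin passed with TMM. TXN, the cytosolic thioredoxin, stood at 101, 112 and 121 CPM in CBS KO and 118, 128 and 125 CPM in WT, with overlap, and did not pass with TMM (log2 fold change -0.15, 95% interval -0.29 to -0.0062, adjusted p = 0.0539 by edgeR). It was called lower without CBS KO replicate 3 (adjusted p = 0.000677) or WT replicate 1 (adjusted p = 0.0491), and with the library total, upper quartile factors, FPKM and TPM (-0.73 with TPM). TXN2, the mitochondrial form, stood at 54.4 ± 4.78 CPM in CBS KO and 53.8 ± 0.833 CPM in WT (log2 fold change 0.02, 95% interval -0.14 to 0.17). TXNL1, a thioredoxin-like protein of the proteasome, stood at 45.1 ± 0.547 CPM in CBS KO and 45.2 ± 3.57 CPM in WT (log2 fold change -0.0044, 95% interval -0.16 to 0.15). With TMM neither passed and their signs were not settled, and with TPM both were called lower (-0.57 for TXN2 and -0.64 for TXNL1).

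Peroxiredoxins, abundant peroxidases that draw on thioredoxin, moved little with TMM: among the 6 peroxiredoxins and SRXN1, 1 was called higher, 1 lower, and 5 did not pass. Of all genes tested, 38.4% were higher and 38.9% lower. PRDX2 stood at 90.6, 97.7 and 110.5 CPM in CBS KO and 137, 135 and 137 CPM in WT, without overlap, and fell 1.37-fold (-0.45 ± 0.07 on the log2 scale, SE, edgeR adjusted p = 1.48e-05), in all 6 scalings. PRDX3, the mitochondrial form, was 1.24-fold higher with TMM (adjusted p = 0.000103 by edgeR) and had the opposite sign with the library total (-0.04) and TPM (-0.27). PRDX1, the most abundant peroxiredoxin, stood at 411, 412 and 495 CPM in CBS KO and 415, 404 and 424 CPM in WT, where CBS KO replicate 3 was the highest of the 6 libraries and the groups overlapped. The 95% intervals of the log2 fold change were -0.07 to 0.24 for PRDX1, -0.17 to 0.10 for PRDX4 of the endoplasmic reticulum, -0.15 to 0.24 for PRDX5 and -0.0011 to 0.25 for PRDX6, which uses glutathione. Without CBS KO replicate 1, PRDX5 (adjusted p = 0.0477) and PRDX6 (adjusted p = 0.0285) were called higher. With TPM the 6 peroxiredoxins and SRXN1 were all called lower, beside 67.6% of all genes. Their median was -0.56, or -0.01 relative to that of all genes.

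Glutaredoxins use glutathione to reduce disulfides and glutathionylated cysteines. With TMM 3 of 4 were called higher and none lower (median log2 fold change 0.50), beside 38.4% of all genes higher and 38.9% lower. With TPM 1 was higher and 2 were lower (median -0.10), beside 15.2% and 67.6% of all genes. GLRX, the cytosolic disulfide reductase, accounted for the largest change, at 146, 153 and 172 CPM in CBS KO and 49.7, 50.0 and 44.5 CPM in WT. Its groups lay far apart, and it rose 3.27-fold (1.71 ± 0.07 on the log2 scale, SE, edgeR adjusted p = 3.55e-12, and 1.09 with TPM). The members that handle iron-sulfur clusters moved less: GLRX3 was 1.36-fold and GLRX5 1.47-fold higher with TMM (adjusted p = 5.34e-06 and 3.11e-06 by edgeR), but with TPM both had the opposite sign (-0.16 and -0.03). GLRX2, the mitochondrial dithiol form, stood at 4.93 ± 0.309 CPM in CBS KO and 3.93 ± 0.457 CPM in WT and did not pass (log2 fold change 0.33, adjusted p = 0.0601 by edgeR), and its sign turned with the library total (-0.03) and TPM (-0.25).

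Glutathione transferases, which conjugate electrophiles to glutathione, included the largest fall of the 47 genes. With TMM 4 of 8 were called lower and 1 higher (median log2 fold change -0.21), beside 38.9% of all genes lower and 38.4% higher. With TPM all 8 were called lower (median -0.78), beside 67.6% of all genes. GSTA1, the alpha class enzyme of enterocytes and hepatocytes, stood at 15.3, 16.7 and 16.6 CPM in the CBS KO libraries, against 115, 111 and 104 CPM in the WT libraries. It fell 6.80-fold (-2.76 ± 0.08 on the log2 scale, SE, edgeR adjusted p = 1.54e-14), with no overlap. Its counts were not whole numbers in 6 of 6 libraries, and its near-identical paralog GSTA2, which is not one of the 47, stood at 8.27 ± 0.442 CPM in CBS KO and 48.4 ± 3.19 CPM in WT. How reads were divided between GSTA1 and GSTA2 is therefore uncertain, and the log2 fold change of their summed counts was -2.70. GSTP1, the pi class enzyme and the most abundant of the 47 genes in WT, stood at 538, 606 and 696 CPM in CBS KO and 845, 857 and 899 CPM in WT and fell 1.41-fold (-0.50 ± 0.08 on the log2 scale, SE, edgeR adjusted p = 2.76e-05). In TPM it stood at 1709.8 ± 63.1 in CBS KO and 3639 ± 109 in WT.

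GSTA4, which conjugates the lipid peroxidation product hydroxynonenal, fell 1.64-fold, to 12.4 ± 1.30 CPM in CBS KO, against 20.2 ± 0.602 CPM in WT (adjusted p = 3.7e-06 by edgeR). GSTK1 of mitochondria and peroxisomes fell 1.29-fold, to 57.2 ± 6.30 CPM in CBS KO, against 73.8 ± 1.43 CPM in WT (adjusted p = 0.000329 by edgeR). The falls of GSTA1, GSTP1, GSTA4 and GSTK1 were called in all 6 scalings. Among the microsomal transferases with TMM, MGST2 was 1.25-fold higher (adjusted p = 0.00313 by edgeR), while MGST1 and MGST3 did not pass (95% intervals of the log2 fold change -0.05 to 0.27 and -0.07 to 0.26), but all 3 had the opposite sign with the library total and TPM. MGST3 was called higher without CBS KO replicate 1 (adjusted p = 0.0393). GSTO1, which has glutaredoxin-like activity, stood at 64.3 ± 4.92 CPM in CBS KO and 66.5 ± 1.69 CPM in WT and did not pass with TMM (log2 fold change -0.05, 95% interval -0.20 to 0.10).

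Of the enzymes that act without thiols, SOD1, the cytosolic copper-zinc superoxide dismutase, stood at 103, 112 and 136 CPM in CBS KO and 136, 134 and 144 CPM in WT and was 1.18-fold lower (-0.24 ± 0.08 on the log2 scale, SE, edgeR adjusted p = 0.0147). CBS KO replicate 3 lay within the WT range, and the edgeR adjusted p was 0.0617 when CBS KO replicate 2 was left out and 0.0683 when WT replicate 3 was. SOD2, the mitochondrial manganese enzyme, had the widest relative spread of the 47 genes in CBS KO, at 349, 399 and 247 CPM, against 189, 178 and 184 CPM in WT. It was 1.81-fold higher with TMM (0.85 ± 0.17 on the log2 scale, SE, edgeR adjusted p = 0.00291), a call lost without CBS KO replicate 1 (adjusted p = 0.0517). In TPM its groups overlapped, at 62.8, 55.6 and 52.6 in CBS KO and 63.9, 53.8 and 68.5 in WT, with the opposite sign (-0.12), and its counts were not whole in any library. CAT, the peroxisomal catalase, was 1.21-fold higher with TMM (adjusted p = 0.00104 by edgeR) and had the opposite sign with the library total (-0.08) and TPM (-0.31).

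Summed TPM, which compares genes per unit of length, showed how the families shifted against each other. The 5 glutathione peroxidases summed to 2211, 2205 and 2221 TPM in the CBS KO libraries, against 1514, 1523 and 1494 TPM in the WT libraries. GPX4 made up 77.4 ± 0.0981% of that sum in CBS KO and 67.8 ± 0.513% in WT (SD, n = 3 in each), while the share of GPX1 was 5.46 ± 0.312% in CBS KO and 8.95 ± 0.333% in WT. The 8 glutathione transferases summed to 2370.3, 2421 and 2504 TPM in CBS KO and 4831, 4871 and 5015 TPM in WT, of which GSTP1 made up 70.3 ± 0.706% in CBS KO and 74.2 ± 0.749% in WT. The peroxiredoxins were also lower as a sum, at 2016 ± 45.0 TPM in CBS KO and 2993 ± 31.1 TPM in WT, with PRDX1 at about the same share (40.5 ± 1.06% in CBS KO and 39.5 ± 0.588% in WT). The median log2 fold change with TPM was -0.54 over all genes, beside -0.56 for peroxiredoxins with SRXN1 and -0.78 for the transferases. Glutaredoxins summed to 546 ± 13.1 TPM in CBS KO and 410.4 ± 11.7 TPM in WT, and GLRX made up 53.9 ± 1.01% in CBS KO and 33.5 ± 1.86% in WT. All 47 genes together took 0.92 to 0.94% of the TPM of a CBS KO library and 1.22 to 1.24% of a WT library, but 0.59 to 0.62% of the counts of a CBS KO library and 0.58 to 0.59% of a WT library.

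**Figure D2:**
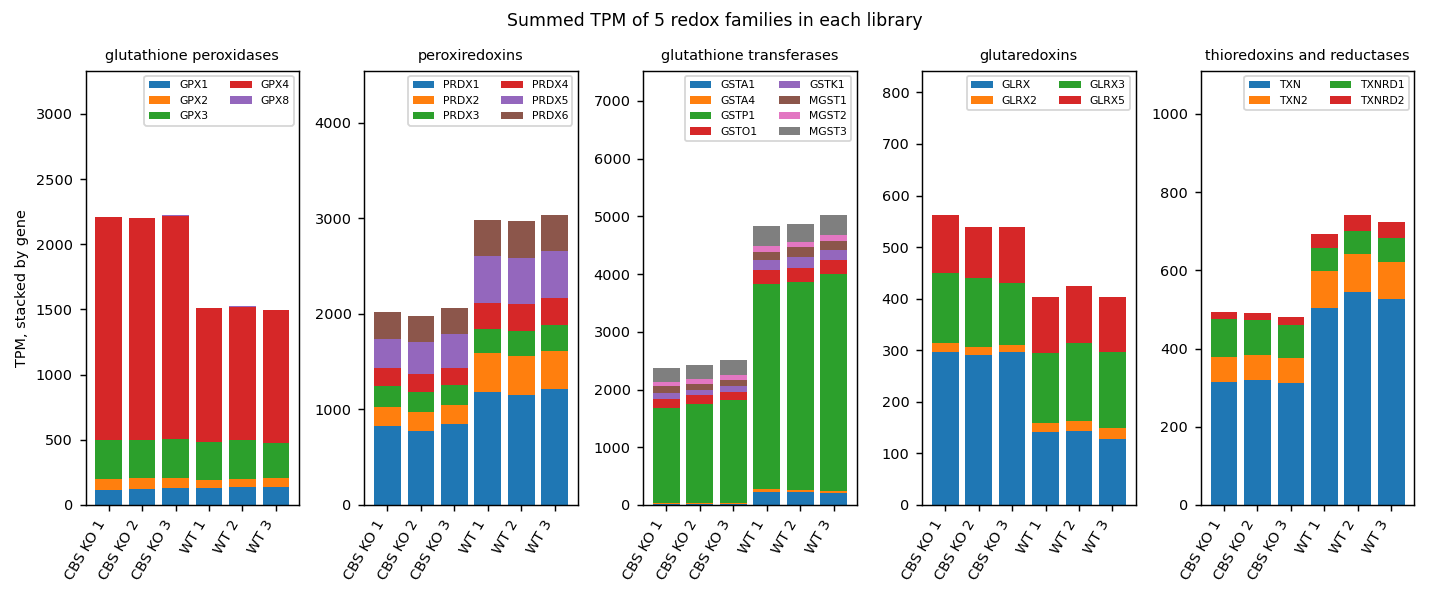
Bars give the summed TPM of 5 redox families in each of the 6 libraries, stacked by gene. The glutathione peroxidase and glutaredoxin bars are taller in the 3 CBS KO libraries, and the peroxiredoxin, glutathione transferase and thioredoxin bars are taller in the 3 WT libraries.

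Ratios of redox genes within a library do not depend on how libraries are scaled, and they were computed from TPM for 12 pairs of genes. They can still differ between TPM and counts. For SOD2 over SOD1 the log2 difference, CBS KO minus WT, was 0.72 from TPM and 1.08 from counts. NFE2L2 over KEAP1 was 4.69, 4.12 and 3.98 in the CBS KO libraries, against 1.01, 1.21 and 1.01 in the WT libraries, a 3.97-fold difference. TXNIP over TXN was 1.47, 1.13 and 1.18 in CBS KO and 0.19, 0.178 and 0.172 in WT, 6.95-fold higher. The inhibitor was thus more abundant than thioredoxin mRNA in every CBS KO library and less abundant in every WT library. TXNRD1 over TXN was 2.52-fold higher, at 0.287 ± 0.0223 in CBS KO and 0.113 ± 0.00538 in WT (SD, n = 3 in each), and its mitochondrial counterpart TXNRD2 over TXN2 was 1.38-fold lower, at 0.293 ± 0.0229 in CBS KO and 0.406 ± 0.0235 in WT. GPX4 over GPX1 was 14.2 ± 0.835 in CBS KO and 7.58 ± 0.295 in WT, and GPX2 over GPX1 was 0.692 ± 0.0651 in CBS KO and 0.473 ± 0.0224 in WT. The modifier of glutamate-cysteine ligase gained on its catalytic subunit, with GCLM over GCLC at 0.245 ± 0.0314 in CBS KO and 0.154 ± 0.0197 in WT. GSTA1 over GSTP1 was 4.79-fold lower, at 0.0126 ± 0.000963 in CBS KO and 0.0604 ± 0.00476 in WT. The remaining ratios ran from 1.10-fold lower for SRXN1 over PRDX1 to 1.64-fold higher for SOD2 over SOD1, with PRDX3 over PRDX1 and GSR over GPX1 1.20-fold and 1.37-fold higher. In all 12 ratios the groups did not overlap. With TMM 77.2% of all genes tested were called, and how often other pairs of genes would be separated was not tested. The two-sided exact permutation test gave p = 0.10 for each, the smallest value that 3 against 3 libraries allow, and 0.10 after Benjamini-Hochberg adjustment over the 12, so that no ratio could reach 0.05.

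**Figure D3:**
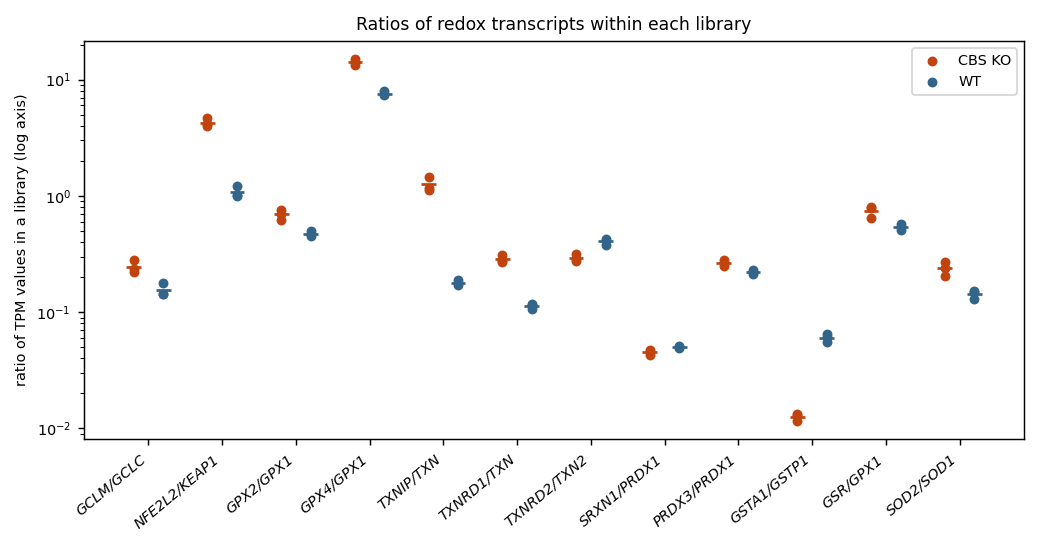
Points are the ratios of TPM values of 2 redox genes in each library on a log axis, with CBS KO left of WT and a bar at the mean of 3. The CBS KO points lie above the WT points in 9 ratios and below them in 3.

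The number of redox genes called depended on the scaling. TMM gave 20 redox genes called higher and 11 lower. The library total gave 13 and 24, FPKM 12 and 24, and TPM 9 and 32. Of all genes, 38.4% were higher and 38.9% lower with TMM. With the library total 22.8% were higher and 56.8% lower (79.6% called), beside 27.7% and 51.1% of the redox genes (78.7% called). With TPM 15.2% were higher and 67.6% lower (82.8% called), beside 19.6% and 69.6% of the 46 redox genes tested (89.1% called). Relative to the median of all genes in the same scaling, the redox median lay 0.13 higher for both TMM and the library total, 0.09 higher for FPKM and 0.08 higher for TPM. Redox genes are short: 31 of the 47 were in the shortest of 5 equal bins of the genes tested (up to 1468 bases, as estimated counts over FPKM give it). The median log2 fold change in that bin was 0.14 over all genes and 0.096 over the redox genes, and the part of gene length in these results was not tested further.

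**Figure D4:**
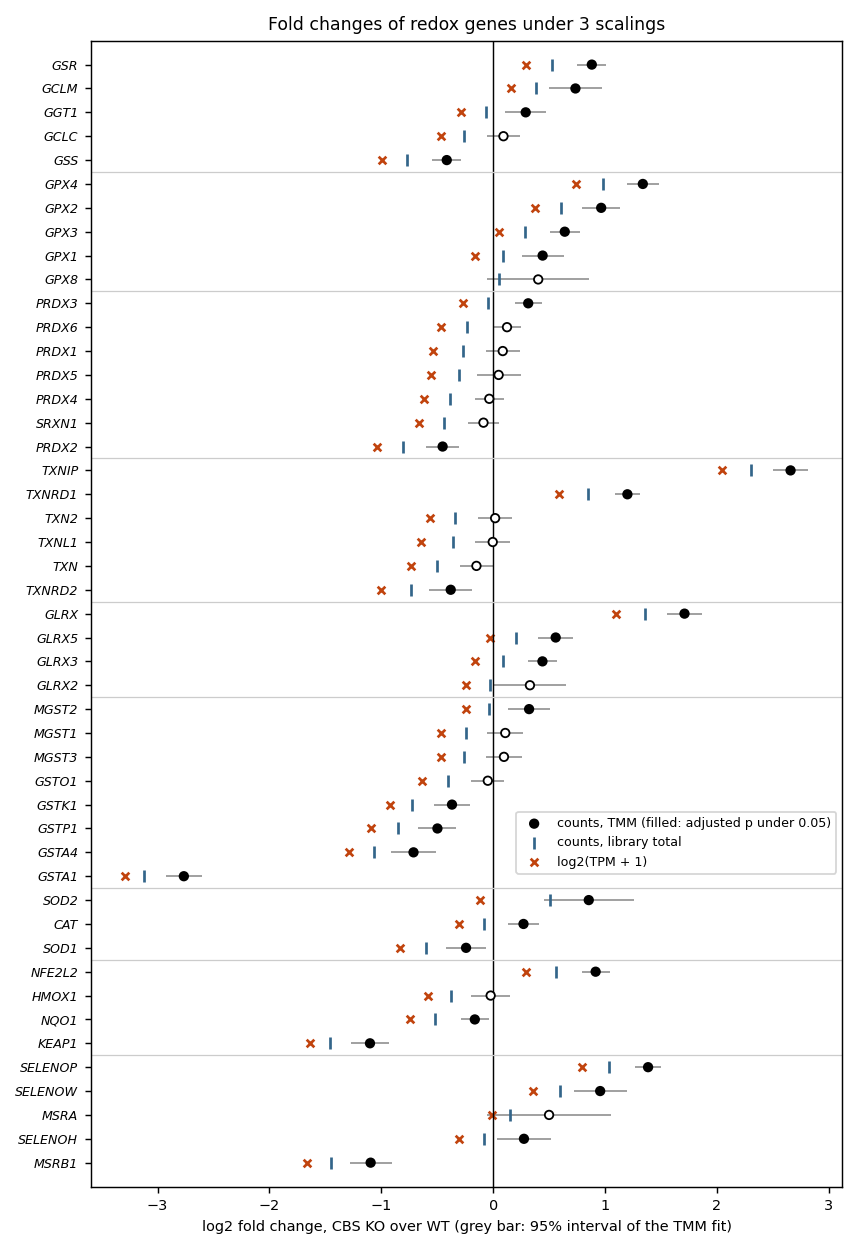
For each redox gene the circle is the log2 fold change with TMM and its 95% interval, the tick the value with the library total and the cross the value on the log2(TPM + 1) scale, all CBS KO over WT. Library total and TPM lie to the left of TMM and cross 0 for PRDX3, CAT and GGT1 but not for TXNIP, GPX4 or GSTA1.

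A list that mixes partners and regulators of NRF2 was mostly higher with TMM. Of 11 tested NRF2 partners and regulators 8 were called higher and 2 lower (median log2 fold change 0.70, or 0.71 above that of all genes), led by the small MAF proteins with which NRF2 pairs on DNA. MAFF rose 12.8-fold, to 142 ± 8.99 CPM in CBS KO, against 11.1 ± 0.531 CPM in WT, and MAFK rose 4.92-fold and MAFG 3.10-fold (adjusted p = 6.5e-16, 3.56e-14 and 1.19e-12 by edgeR). BACH1, a repressor that competes with NRF2 for MAF partners, was picked after its values were seen. It rose 1.77-fold to 139 ± 17.1 CPM in CBS KO, against 78.7 ± 3.94 CPM in WT, with TMM, but did not pass with TPM (0.22). With TPM, 3 of the 11 partners and regulators were called higher and 5 lower (median 0.08, or 0.63 above that of all genes). Of 26 other NRF2 target genes 10 were called higher and 12 lower with TMM (median -0.10), against 4 and 17 with TPM. SLC7A11, the cystine importer that supplies cysteine for glutathione, rose 2.94-fold with TMM (adjusted p = 6.57e-05 by edgeR) but overlapped between the groups and did not pass with TPM (0.41, limma adjusted p = 0.0622). The aldo-keto reductases AKR1C1 and AKR1C3 fell 2.40-fold and 2.33-fold, although reads of this family of close paralogs may be split uncertainly. Of 14 NADPH-producing enzymes 5 were higher and 7 lower with TMM (3 and 10 with TPM). The mitochondrial folate enzymes ALDH1L2 and MTHFD2 were 6.10-fold and 2.64-fold higher (1.24 and 0.89 with TPM), and the cytosolic MTHFD1 was 2.62-fold lower. These counts and those of the following lists stand beside 38.4% of all genes higher and 38.9% lower with TMM, and 15.2% and 67.6% with TPM.

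Among 25 other glutathione enzymes and transporters, 10 were called higher and 7 lower with TMM, and 6 of 24 higher and 14 lower with TPM. DPEP1, a dipeptidase that completes glutathione breakdown outside the cell, rose 4.03-fold, and ETHE1, which oxidises glutathione persulfide in mitochondria, rose 2.91-fold, to 59.9 ± 6.16 CPM in CBS KO, against 20.6 ± 1.80 CPM in WT. GSTA2 fell 5.85-fold, with the same limit on paralogs as GSTA1. Other selenoproteins were mixed, with 5 of 10 higher and 4 lower with TMM (3 and 5 of 11 with TPM): SELENOK and SELENOI, both membrane proteins of the endoplasmic reticulum or Golgi, rose 2.97-fold and 2.73-fold, and DIO1, a deiodinase that activates thyroid hormone, fell 3.20-fold. Of 10 genes that serve selenocysteine use, 3 were called higher and 4 lower with TMM (1 and 6 with TPM). SCLY, the lyase that recovers selenium from selenocysteine, fell 2.45-fold and NCL fell 1.97-fold, while RPL30 rose 1.98-fold. Of 25 other thioredoxin-fold and thioredoxin-linked genes 12 were higher and 7 lower with TMM (2 and 16 of 24 with TPM). No called gene of this list that reached 5 CPM moved by as much as 2-fold. PRXL2C rose 1.85-fold, TXNDC5 of the endoplasmic reticulum rose 1.76-fold and TMX2 fell 1.70-fold. Of 7 relatives and regulators of TXNIP, 4 were higher and 1 lower with TMM (2 and 4 with TPM). The related arrestins ARRDC4 and ARRDC3 rose 3.12-fold and 2.53-fold, while MLXIP, which encodes the glucose-responsive factor MondoA, fell 2.08-fold (adjusted p = 5.96e-11, 1.9e-10 and 2.73e-10 by edgeR). All genes named from these lists kept their direction with TPM, but SLC7A11 and BACH1 did not pass there. None of the 15 transcripts listed as signs of RNA quality (mitochondrially encoded transcripts, MALAT1 and NEAT1) was found under its listed symbol in the expression table. They could therefore not be analysed here.

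**Figure D5:**
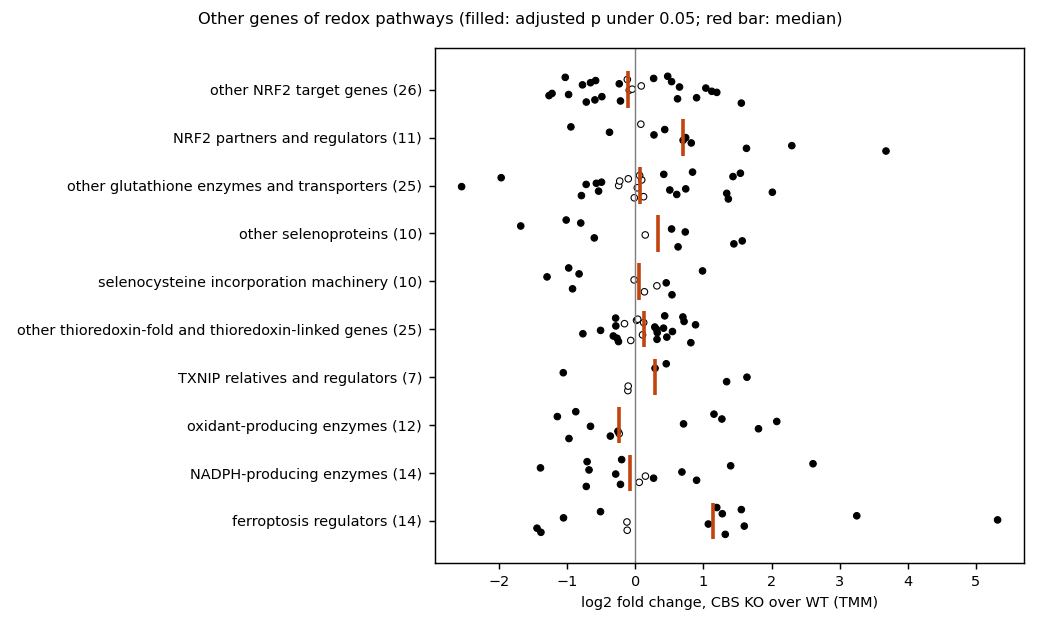
Each point is a gene of a redox-related list, with the number tested in brackets, at its log2 fold change with TMM, filled where it passed the test, and the red bar is the median of the list. MAFF lies farthest to the right among NRF2 partners, at 3.68, and the list medians run from -0.24 for oxidant-producing enzymes to 1.13 for ferroptosis regulators. The ferroptosis list mixes genes of opposite roles.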

How the data were processed

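RNA sequencing of 6 Caco-2 libraries (3 CBS KO, 3 WT) was analysed from the authors' deposited table of estimated counts, FPKM and TPM per gene. Per the submitters' processing notes the build was GRCh38, and the named tools were StringTie 2.1.6, HISAT2 2.2.1, cutadapt 1.9, edgeR and DESeq2. The deposited estimated counts were not whole for 7.12 to 7.43% of values and were rounded. FPKM and TPM were deposited by the authors as values per gene length and depth, and genes averaging at least 1 were tested on a log2 scale after adding 1 (or 0.1).

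Counts were tested with edgeR 4.0.16 in R 4.3.3 (filterByExpr, which removed 3753 genes, TMM factors, robust quasi-likelihood test) over the 6 libraries, called at a Benjamini-Hochberg adjusted p under 0.05. CPM values use TMM library sizes. Alternatives were the library total, DESeq2 size factors, upper quartile factors, DESeq2 1.42.0's Wald test, no filter, a mean of at least 5 CPM, limma 3.58.1 (limma-trend), a replicate block and leaving out each library. On simulated counts for this comparison (12920 genes) the test recovered 83.6% of 67 1.5-fold changes and 98.5% of 67 2-fold changes, with 11 false calls. In the data 77.2% of all genes tested were called. The simulation changed far fewer genes, so it cannot say how well direction is recovered here. Ratios within a library were tested with an exact permutation test.

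The 47 genes and all gene lists were chosen with earlier results of these data known. Named were all 47, CBS, and up to 3 called genes with the largest change per other list that reached 5 CPM in the higher group. Libraries held 12805180 to 16176745 estimated counts. A gene with 3 counts stands at 0.164 to 0.264 CPM, and intervals cover only the spread between libraries. No protein sequence was used here.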

Additional observations from a re-analysis of the deposited data

How the results depend on the processing

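The counts of redox genes called rested on the scaling. With the library total 13 redox genes were higher and 24 lower, and 2966 of all genes were higher. With log2(FPKM + 1) in limma-trend these counts were 12, 24 and 2679. With log2(TPM + 1) they were 9, 32 and 1844, beside 8216 of all genes lower, and with log2(TPM + 0.1) they were 9, 32 and 1834, beside 8191 of all genes lower. The median log2 fold change of the redox genes was then -0.23, -0.23, -0.46 and -0.47, while the median of all genes was -0.36, -0.32, -0.54 and -0.60. The cause of the shift of all genes was not tested.

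Signs of many changes turned in these scalings, including those of SOD2 and GLRX5, at 0.85 and 0.56 with TMM. With the library total the log2 fold change was -0.26 for GCLC and MGST3, -0.065 for GGT1, -0.27 for PRDX1, -0.042 for PRDX3, -0.31 for PRDX5, -0.23 for PRDX6, -0.34 for TXN2, -0.026 for GLRX2, -0.25 for MGST1, -0.035 for MGST2, -0.084 for CAT and -0.081 for SELENOH. With FPKM it was -0.23 for GCLC and PRDX6, -0.068 for GGT1, -0.30 for PRDX1, -0.041 for PRDX3, -0.32 for PRDX5, -0.33 for TXN2, -0.026 for GLRX2, -0.24 for MGST1 and MGST3, -0.015 for MGST2 and -0.080 for CAT and SELENOH. With log2(TPM + 1) it was -0.46 for GCLC and PRDX6, -0.29 for GGT1, -0.16 for GPX1 and GLRX3, -0.54 for PRDX1, -0.27 for PRDX3, -0.56 for PRDX5, -0.57 for TXN2, -0.25 for GLRX2 and MGST2, -0.031 for GLRX5, -0.47 for MGST1 and MGST3, -0.12 for SOD2, -0.31 for CAT, -0.30 for SELENOH and -0.0093 for MSRA. With log2(TPM + 0.1) it was -0.48 for GCLC, -0.31 for GGT1 and CAT, -0.16 for GPX1 and GLRX3, -0.54 for PRDX1, -0.27 for PRDX3, -0.56 for PRDX5, -0.46 for PRDX6, -0.57 for TXN2, -0.26 for GLRX2, -0.032 for GLRX5, -0.47 for MGST1 and MGST3, -0.25 for MGST2, -0.12 for SOD2, -0.32 for SELENOH and -0.0049 for MSRA. TXNL1 was 0.010 with DESeq2 size factors and with the DESeq2 Wald test, and TXN2 was -0.021 with no filter on low counts and -0.030 with upper quartile factors. Over the fits that left out a library, 5 genes changed sign, with ranges of -0.022 to 0.13 for PRDX1, -0.10 to 0.15 for PRDX5, -0.067 to 0.062 for TXN2, -0.069 to 0.043 for TXNL1 and -0.016 to 0.16 for MGST3.

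Over the 6 fits that left out a library, 19 to 22 redox genes were called higher and 9 to 13 lower, and 4 lost their call at least once while 6 gained one. Whether the replicate numbers of CBS KO and WT pair the libraries is not settled by the labels or the data. Deviations from the group means correlated at 0.12, -0.03 and 0.06 (Pearson's r over 10918 genes) for equal numbers. CBS KO replicates 1 and 3 correlated best with the WT library of their own number, and CBS KO replicate 2 did not. The fit with the replicate number as a block called 20 redox genes higher and 12 lower, and 4986 and 5058 of all genes. TXN gained its call under that block (adjusted p = 0.0343 by edgeR), with upper quartile factors (0.0163) and with no filter (0.0132), PRDX6 with DESeq2 size factors (0.0446) and the DESeq2 Wald test (0.0489), and SELENOH lost it with upper quartile factors (0.0798), the Wald test (0.0582) and no filter (0.0610). Summing GSTA1 and GSTA2 was added after the data were seen. With 3 libraries a group, GPX8 and MSRA, at no more than 2.37 and 2.02 CPM, were the least precise.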

Other observations

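Of 12 tested enzymes that produce oxidants, 5 were called higher and 6 lower with TMM (edgeR's quasi-likelihood test, adjusted p under 0.05), beside 38.4% and 38.9% of all genes, and 3 of 8 were higher and 5 lower with TPM, beside 15.2% and 67.6%. ERO1A, which passes electrons from protein disulfide isomerase to oxygen in the endoplasmic reticulum, stood at 840.2, 890.1 and 754 CPM in CBS KO and 198, 204 and 186 CPM in WT, 4.22-fold higher (adjusted p = 2.17e-13 by edgeR). Its relative ERO1B was 2.41-fold higher, and the spermine oxidase SMOX 2.23-fold higher, at 63.6 ± 5.21 CPM in CBS KO and 28.6 ± 0.46 CPM in WT. All 3 kept their direction with TPM.

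Of 14 genes linked to ferroptosis, the iron-dependent death by lipid peroxidation that GPX4 restrains, 8 were called higher and 4 lower with TMM, and 6 of 13 higher and 6 lower with TPM. Their median log2 fold change was 1.13 with TMM and 0.41 with TPM, or 1.15 and 0.95 above that of all genes. The list mixes genes that promote ferroptosis with genes that restrain it, so its median gives no direction for the process. The genes named below are the called ones with the largest changes on the list. Of all genes tested, 38.4% were higher and 38.9% lower with TMM, and 15.2% and 67.6% with TPM. PTGS2, the inducible cyclooxygenase, stood at 17.1, 17.0 and 14.2 CPM in CBS KO and 1.81, 1.65 and 1.58 CPM in WT, 9.52-fold higher (adjusted p = 3.88e-12 by edgeR, and 1.71 on the log2(TPM + 1) scale, where low values are understated). GCH1, which opens tetrahydrobiopterin synthesis, stood at 61.3, 59.6 and 60.4 CPM in CBS KO and 21.3, 19.2 and 19.3 CPM in WT, 3.03-fold higher (adjusted p = 5.11e-12 by edgeR). SLC7A11, which is also on the list of NRF2 targets, stood at 50.9, 39.2 and 29.6 CPM in CBS KO and 12.1, 13.3 and 15.2 CPM in WT. In TPM it stood at 7.29, 5.21 and 3.66 in CBS KO and 3.46, 4.74 and 3.02 in WT, where the groups overlapped and it did not pass (limma adjusted p = 0.0622).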
